A study of Saccharomyces cerevisiae with 30 samples.

Results

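Messenger RNA was compared between 120 and 60 min after beta-estradiol in budding yeast cells whose chromosome IV centromere had been cut out. The comparison rests on 6 of the 30 libraries of the study: 3 of cen4- cells at 120 min and 3 of cen4- cells at 60 min, chosen by their labelled condition. The cen4- cells are haploid MATa yeast of the S288c background that carry their centromere as lox-CEN4-lox:KanMX, the recombinase as GDP-creEBD78:LEU2, and the deletions met15-delta-0, ura3-delta-0, leu2-delta-0 and his3-delta-1. They are called CEN4* before excision and cen4- after it. Cre-EBD78 is a recombinase fused to an estradiol-binding domain, here expressed from the GDP promoter, and beta-estradiol switches it on so that it removes the DNA between the lox sites. The same interval was read in the CEN4 control strain, 3 libraries at 120 min and 3 at 60 min, which carries ura3::GDP-cre EBD78:LEU2 with the same his3, leu2, ura3 and met15 deletions and whose label lists no lox sites. Both strains grew in YPD, a rich glucose medium, at 30 °C and received 1 µM beta-estradiol, so all 12 libraries share the recombinase and the agent. The replicates of a group came from 3 independent experiments, and each library is RNA of a whole population. The share of cells with an excised centromere is no part of these data, and a smaller share of cells expressing a gene cannot be told apart from less of its RNA per cell.

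A budding yeast centromere is a short, defined DNA element on which the kinetochore, the protein complex that binds spindle microtubules, is built. A chromosome without it is not attached to the spindle and is passed on to daughter cells unevenly. Yeast growing in rich medium spends much of its transcription on ribosomes, and under many stresses it lowers ribosomal genes while it raises a common set of stress genes through the factors Msn2 and Msn4, and raises chaperone genes through Hsf1.

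The 3 cen4- libraries at 120 min held 10115883 to 11002408 reads and the 3 at 60 min 8233459 to 10020302, within the 8218002 to 14956813 of all 30. Values are normalised read counts, that is reads divided by a size factor of the library. Pairs of replicates differed by more than counting noise, with a chi-square per degree of freedom of 1.84 to 5.39, highest where replicate 3 at 60 min was in the pair. URA3 and MET17 (the MET15 gene), deleted in both strains, were listed at 0 in all 12 libraries. HIS3, of which the his3-delta-1 allele lacks a part, had 543 to 645 normalised counts in the cen4- libraries and 648 to 743 in the CEN4 libraries. LEU2, which both strains carry as the marker of the recombinase, had 2046 to 2523 in the cen4- libraries and 4598 to 6202 in the CEN4 libraries, without overlap. The place of insertion is labelled for the CEN4 strain alone, and the part of this gap in the differences between strains was not tested. MFA1, MFA2, STE2, STE6, BAR1 and AGA2, which MATa cells express, lay between 925 and 12289 normalised counts in the 6 cen4- libraries. Of the genes of the other mating type, MF(ALPHA)1, an alpha-factor gene, had 3.55 to 22.9 in these libraries and STE3 had 60.1 to 74.7. MF(ALPHA)2 had 107 to 134 and SAG1 500 to 560, so these markers were not all near 0. Neither MF(ALPHA)1 nor MF(ALPHA)2, STE3 or SAG1 passed the test in cen4- cells.

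The step from 60 to 120 min changed the levels of many genes by small amounts. Of 5948 genes tested, 2995 (50.4%) passed at an adjusted p below 0.05 in cen4- cells, 1483 higher (24.9%) and 1512 lower (25.4%) at 120 min. The median log2 change was 0.29 among the genes that rose and -0.26 among those that fell, with a median standard error of 0.059 over all genes. A change of at least 2-fold was met by 40 of the genes that rose and 7 of those that fell, and of at least 1.5-fold by 228 and 84. These directions are relative to the median gene, which stood at -0.004 on the log2 scale. When every library was scaled to the same total instead, the median gene stood at 0.1, and 2428 genes were higher and 836 lower. For many of the lists below, counts at the same total are given as well. Where they are not given, some counts moved too. Genes that overlap another gene of the RefSeq R64 annotation numbered 146 among those tested and 56 among those called. For them the source of a read cannot be told apart. Overlaps with deposited genes outside that annotation were not counted.

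In CEN4 cells 2730 genes (45.9%) passed over the same interval, 1341 higher (22.5%) and 1389 lower (23.4%). No library is shared with the cen4- comparison. Of the genes higher in cen4- cells 60.0% were also higher in CEN4 cells (66.4% of the CEN4 list), and of those lower 63.6% were also lower (69.2% of the CEN4 list). Across genes, which are not independent replicates, the changes had a Pearson r of 0.66 and a Spearman rho of 0.64. Opposite calls were made for 105 genes, of which 51 were higher in cen4- cells and lower in CEN4 cells. The change itself differed between strains for 995 genes (16.7%): for 457 (7.68%) it was more positive in cen4- cells and for 538 (9.05%) more negative. In 8 of these the difference was 2-fold or more, 3 more positive and 5 more negative. In 6 of the 8 the change in cen4- cells itself did not pass, and the other two genes had a mean below 50.

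**Figure D1:**
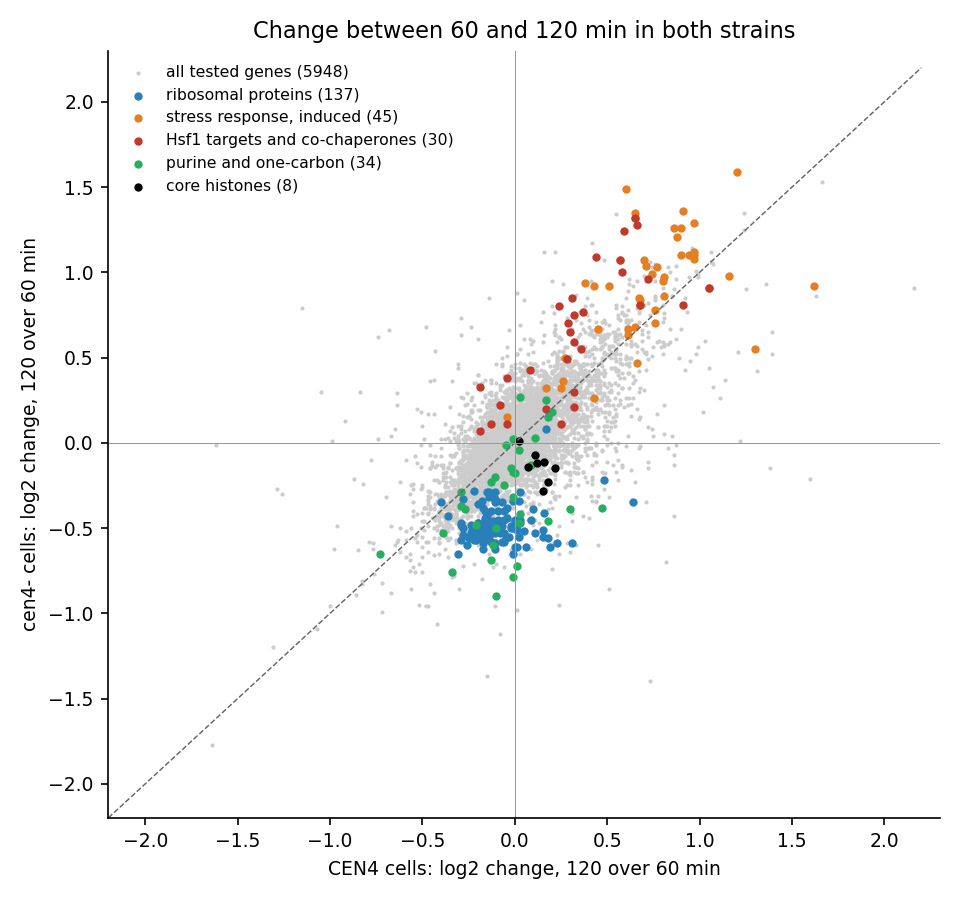
Log2 change from 60 to 120 min of each tested gene in cen4- cells (vertical) against that in CEN4 cells (horizontal), 1 point per gene, with coloured gene lists and a dashed line of equal change. Ribosomal protein genes lie mostly below the line, with a median change of -0.50 in cen4- cells and -0.13 in CEN4 cells, and Hsf1 targets lie mostly above it.

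Gene length moved with the difference between strains. Across 5717 genes with an annotated length, the Spearman rho with length was 0.07 for the change in cen4- cells, -0.31 for that in CEN4 cells and 0.47 for the difference. Genes of up to 300 bp had a median change of -0.03 in cen4- cells and 0.21 in CEN4 cells, and genes over 3000 bp had 0.03 and -0.09. Leaving out ribosomal protein genes, the 577 genes of up to 450 bp stood 0.03, 0.00 and -0.03 log2 units from the 5003 longer genes in the 3 cen4- libraries at 120 min, set against the 60 min mean of the strain; the 3 CEN4 libraries had 0.13, 0.24 and 0.14. With the trend against length taken out of each library, 667 genes differed between strains and 2970 passed in cen4- cells. For the lists below, counts of differences are also given after this removal, a step chosen after seeing the data. The part of the length trend in the differences between strains was otherwise not tested.

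Genes of chromosome IV stood apart from the rest in cen4- cells. Of its 768 tested genes 303 were higher (39.5%) and 116 lower (15.1%) at 120 min, against 1180 higher (22.8%) and 1396 lower (27%) of 5177 on the other nuclear chromosomes. The median change of chromosome IV was 0.108 log2 units above that of the other chromosomes in cen4- cells and 0.004 in CEN4 cells. The other 15 chromosomes lay between -0.04 and 0.042 in cen4- cells by the same measure. The difference between strains was more positive for 142 chromosome IV genes (18.5%), against 315 genes elsewhere (6.08%). With the length trend removed these counts were 95 and 211. With all libraries at the same total 455 chromosome IV genes were higher and 62 lower in cen4- cells, against 1973 and 774 elsewhere, and the difference was more positive for 239 and 749.

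All 3 cen4- libraries at 120 min showed the shift. Set against the 60 min mean of the strain, the chromosome IV median stood 0.099, 0.109 and 0.108 above the other chromosomes at 120 min, against 0.019, 0.012 and -0.033 at 60 min. The groups did not overlap, and the exact permutation test gave a two-sided p of 0.1, the smallest that 3 against 3 libraries allow. In CEN4 cells the values were 0.002, 0.001 and 0.006 at 120 min, against -0.005, 0.006 and -0.001 at 60 min (exact permutation p = 0.5). Chromosome IV took 14.25%, 14.29% and 14.21% of the reads of cen4- cells at 120 min, against 13.83%, 13.83% and 13.59% at 60 min. Over the time course of the cen4- strain the libraries lay at -0.045 to -0.032 at 0 min, -0.028 to -0.011 at 30 min, -0.033 to 0.019 at 60 min, 0.099 to 0.109 at 120 min and 0.156 to 0.169 at 180 min. The ranges of 30 and 60 min overlapped, and those of 120 and 180 min lay above all earlier ones. Over all alternatives run, the shift between 60 and 120 min in cen4- cells was 0.086 to 0.116, lowest without replicate 3 at 60 min.

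**Figure D2:**
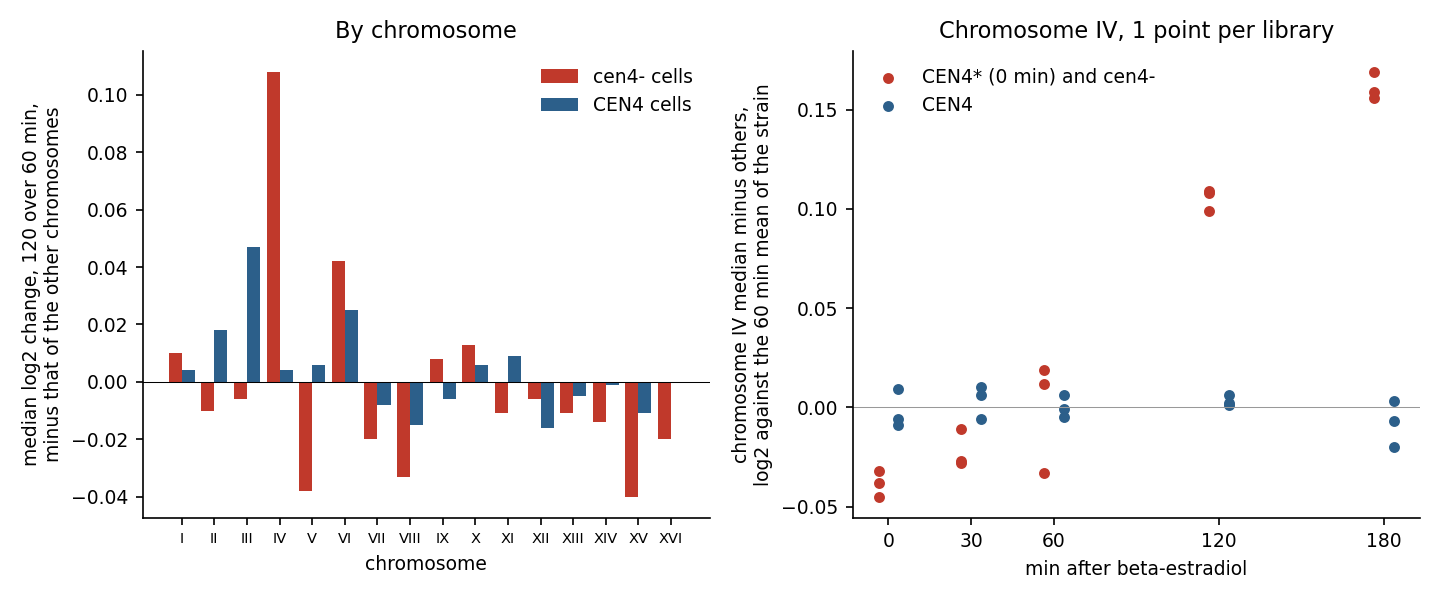
Left, median log2 change from 60 to 120 min of each chromosome minus that of the other nuclear chromosomes, cen4- bars beside CEN4 bars; right, the same measure for chromosome IV library by library, set to the 60 min mean within a strain, 3 points per group. Chromosome IV has a bar of 0.108 in cen4- cells, and its cen4- libraries stand at 0.099 to 0.109 at 120 min.

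The shift was present along the chromosome and at each expression level. In 16 bins of 100 kb the cen4- median was 0.06 to 0.22, above 0 in every bin, and on chromosome IV 66.1% of genes had a change above 0, against 46.8% elsewhere. The highest bin, 400 to 500 kb out on the left arm, held 20 genes and also had the highest CEN4 median, 0.13. By level, the chromosome IV medians were 0.17 for low-level genes, 0.10 for middle and 0.01 for high-level genes (3 equal classes of all tested genes by mean), against 0.03, 0.01 and -0.10 for the other chromosomes. Within 25 kb of the centromere 15 of 29 genes rose (51.7%) and 2 fell (6.9%), with a median of 0.15. On the whole of chromosome IV 39.5% rose and 15.1% fell, with a median of 0.09, and of all tested genes 24.9% rose and 25.4% fell. In CEN4 cells 6 of the 29 genes rose and 6 fell, with a median of 0.02. Whether genes near the centromere differed from the rest of the chromosome was not tested.

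**Figure D3:**
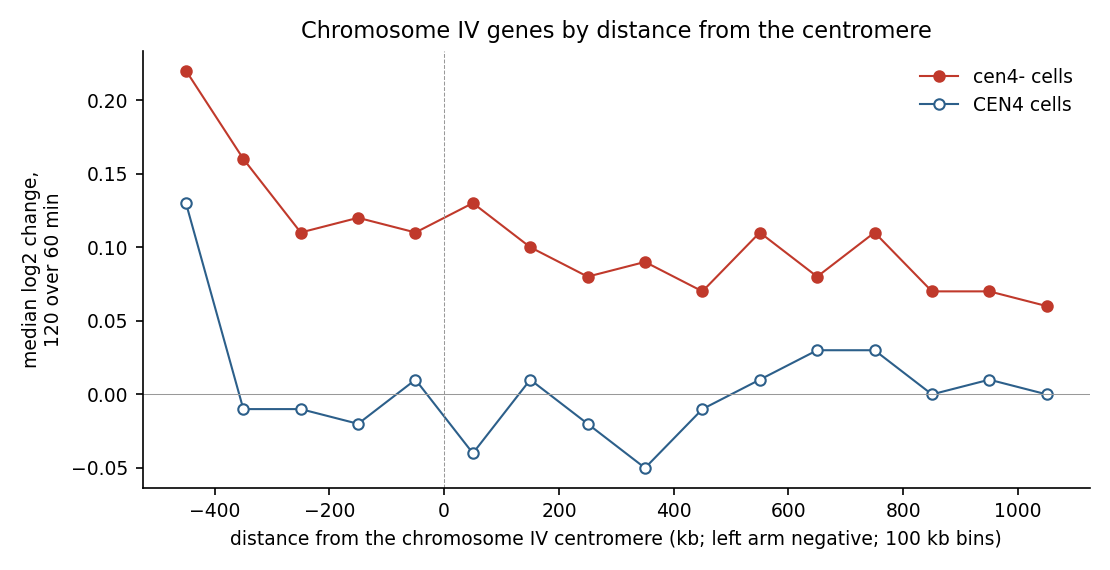
Median log2 change from 60 to 120 min of chromosome IV genes in 100 kb bins (vertical) against distance from the centromere in kb, left arm negative (horizontal), cen4- filled and CEN4 open circles. The cen4- medians lie between 0.06 and 0.22 in all 16 bins.

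The 2 genes that flank the excised DNA were unlike each other in this interval. NTH1, which encodes the neutral trehalase and lies to the right of the centromere (chrIV:450220-452475), had 2093, 2022 and 1879 normalised counts at 120 min, against 1287, 1266 and 1309 at 60 min. Its log2 change was 0.63 (adjusted p = 1.32e-17), and it rose in CEN4 cells too, by 0.42. The difference between strains passed for NTH1 (0.21, adjusted p = 0.0259). RMD1, to the left (chrIV:447984-449276), had 440.5, 460.2 and 460.5 normalised counts at 120 min, against 476, 465 and 472 at 60 min, a change of -0.05 that did not pass (adjusted p = 0.542). MCD1, the cleavable subunit of cohesin, lies further to the left and had 1327, 1331.5 and 1336 normalised counts at 120 min, against 1134, 1149.8 and 1179 at 60 min. It rose by 0.21 (adjusted p = 0.000751), and its 3 values at 120 min were all above those at 60 min. Its change was 0.02 in CEN4 cells, a difference that did not pass (0.19, adjusted p = 0.068).

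Genes of the general stress response were prominent among the largest rises. Of the 12 largest rises among genes with a mean of at least 50, 8 were in the stress list. Of 45 listed stress-induced genes 44 rose and none fell, with a median log2 change of 0.94, against -0.004 for all tested genes. They took 2.21%, 2.22% and 2.08% of the reads at 120 min, against 1.06%, 1.14% and 1.21% at 60 min. In CEN4 cells 44 rose as well, with a median of 0.71, and the difference between strains was more positive in cen4- cells for 18 and more negative for 1 (17 and 1 with the length trend removed). Several promoters of the genes below hold the letters of the stress response element, AGGGG or CCCCT on the other strand, to which Msn2 and Msn4 are known to bind. Windows of 30 bases from the 400 bases before the start codon are shown for 2 of the most raised genes, with that element in capitals (RefSeq, R64).
TSL1: ggggtagaaccaAGGGGctagcacactcac
GSY2: gaacgcaattcaCCCCTttctttcttatgc

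These windows lie at chrXIII:70447-70476 (plus strand) and chrXII:660508-660537 (plus strand), and the element starts 165 and 196 bases before the start codon. The letters were found in 91.1% of the 400-base windows of the stress list and 80.0% of those of the glycogen and trehalose list, against 29.3% of the windows of all 5717 genes. They were in 47.6% of the windows of genes that rose in cen4- cells and 19.6% of those that fell. In the 400 bases TSL1 has 5 matches and GSY2 has 2. A match describes the letters and is no measure of binding.

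Glycogen and trehalose are the reserve carbohydrates of yeast, and 18 of 20 listed genes of their metabolism rose, 1 fell and the median was 0.54. GPH1, glycogen phosphorylase (chrXVI:861306-864014), had 1232, 1270.0 and 1118 normalised counts at 120 min, against 372.5, 414 and 414 at 60 min. It had the largest rise of all tested genes, 1.59 ± 0.08 (SE), adjusted p = 1.32e-19, and its groups were far apart. GSY2, the main glycogen synthase, had 2690.1, 2686 and 2679 normalised counts at 120 min, against 1038, 1083 and 1018 at 60 min, a rise of 1.36 ± 0.05 (SE), adjusted p = 2.77e-32. GDB1, the glycogen debranching enzyme, had 1741, 1639 and 1731.5 normalised counts at 120 min, against 628, 668 and 714 at 60 min, a rise of 1.35 ± 0.06 (SE), adjusted p = 3.23e-27. Enzymes of synthesis and of breakdown rose together, without overlap between times. TSL1, the large subunit of the trehalose synthase complex, had 5278, 5463 and 5146 normalised counts at 120 min, against 1781, 1892 and 2003 at 60 min, a rise of 1.49 ± 0.10 (SE), adjusted p = 2.87e-11. In CEN4 cells TSL1 rose by 0.60, GDB1 by 0.65 and GSY2 by 0.91, each less than in cen4- cells. The differences were 0.88 ± 0.14 (SE), adjusted p = 9.52e-05 for TSL1, 0.70 for GDB1 and 0.45 for GSY2, and all held when any library was left out and with the length trend removed. PGM1, a minor phosphoglucomutase gene, was the member that fell. For the list as a whole the difference was more positive for 12 genes, and for 7 with the length trend removed.

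Further raised genes were CTT1 and ALD4 of the stress list and TMA10, AIM17 and YNL194C. CTT1, the cytosolic catalase, had 4043.5, 4167 and 3629.8 normalised counts at 120 min, against 1625, 1894 and 2032 at 60 min, a rise of 1.10 ± 0.11 (SE), adjusted p = 1.57e-08, against 0.94 in CEN4 cells. TMA10 had 1152, 1194 and 1109.8 normalised counts at 120 min, against 362, 468.5 and 539 at 60 min, a rise of 1.35 ± 0.11 (SE), adjusted p = 5.69e-11, against 1.24 in CEN4 cells. The difference between strains did not pass for CTT1 (0.16 ± 0.15 (SE), adjusted p = 0.56) or TMA10 (0.11 ± 0.15 (SE), adjusted p = 0.693). ALD4, the mitochondrial aldehyde dehydrogenase, had 4136, 4001 and 3855 normalised counts at 120 min, against 1545, 1704 and 1753 at 60 min, a rise of 1.26 ± 0.06 (SE), adjusted p = 8.89e-18, and here the difference passed (0.40 ± 0.09 (SE), adjusted p = 0.00108). AIM17 had 1005, 963 and 916 normalised counts at 120 min, against 422, 462 and 398 at 60 min, a rise of 1.17, and differed by 0.75 ± 0.10 (SE), adjusted p = 4.9e-08. YNL194C, a membrane protein of the eisosome, rose by 1.34 and differed by 0.79.

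Chaperone genes rose, and more than in the control strain. Of 30 listed targets of the heat-shock factor Hsf1 and co-chaperones 28 rose and none fell, with a median of 0.68. In CEN4 cells 24 rose and 4 fell, with a median of 0.32, and the difference was more positive in cen4- cells for 22 members and more negative for 1 (21 and 0 with the length trend removed). HSP82, an inducible Hsp90, had 9126, 9546 and 9048 normalised counts at 120 min, against 3696, 3967 and 4085 at 60 min. It rose by 1.24 ± 0.07 (SE), adjusted p = 9.14e-13, its groups did not overlap, and the difference from the CEN4 change of 0.59 was 0.65 ± 0.10 (SE), adjusted p = 6.2e-05. HSP42, a small heat-shock protein that gathers misfolded proteins, had 2598, 2941 and 2506 normalised counts at 120 min, against 968, 1067 and 1183 at 60 min, a rise of 1.32 ± 0.09 (SE), adjusted p = 7.57e-12. HSP78, the mitochondrial disaggregase, had 1527.5, 1609.8 and 1501 normalised counts at 120 min, against 721, 748 and 705 at 60 min, a rise of 1.09 ± 0.06 (SE), adjusted p = 1.23e-23. BTN2, a sorting factor for aggregates, had 1355, 1619.6 and 1679 normalised counts at 120 min, against 545, 716 and 663 at 60 min, a rise of 1.28 ± 0.11 (SE), adjusted p = 1.41e-09. For these 3 genes the difference was 0.67, 0.66 and 0.61, and it passed whichever library was left out. HSP42 and HSP78 lie on chromosome IV, where 4 of 4 tested members rose (median 0.97), as did 24 of 26 on the other chromosomes (median 0.62).

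Hsf1 binds repeats of NGAAN, and paired repeats were searched as TTCNNGAA or GAANNTTC on both strands, patterns that may overlap each other. At least 1 was found before 83.3% of the listed genes, against 29.4% of all 5717. Genes that rose in cen4- cells held a match in 27.6% and genes that fell in 30.9%, both near the share of all genes. Windows with the match in capitals are shown for the 4 genes just described.
HSP82: ctgtattagagTTCAAGAAatcatacctga
HSP78: tttccagaatgTTCTAGAAgtgttctttca
HSP42: gttctggaaggTTCGCGAAttgagaactgc
BTN2: atattttcttcTTCTTGAAagaaatatcag

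The windows lie at chrXVI:98674-98703 (minus strand), chrIV:974462-974491 (minus strand), chrIV:806377-806406 (plus strand) and chrVII:772364-772393 (plus strand), with the match 67, 237, 233 and 79 bases before the start codon.

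**Figure D4:**
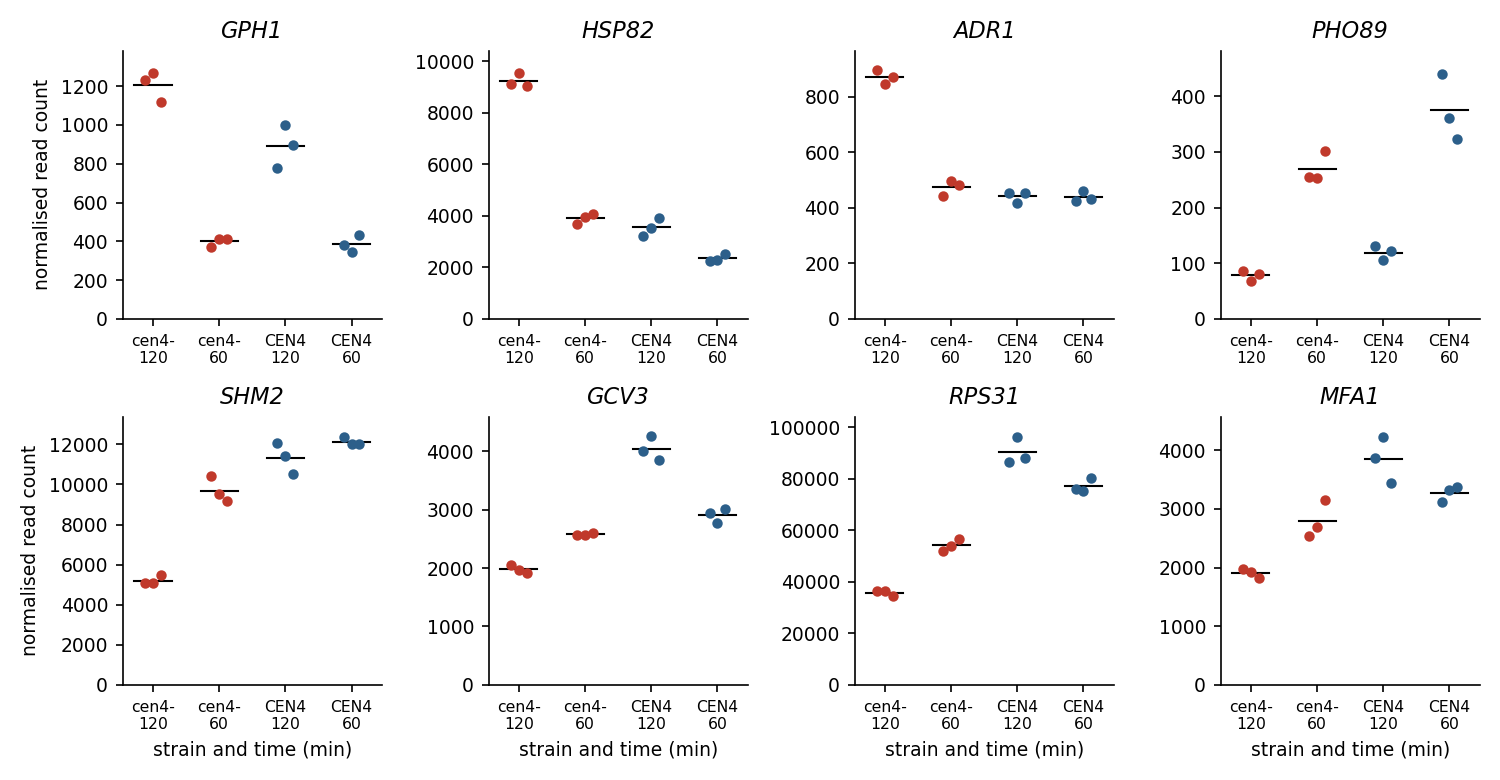
Normalised read counts (vertical, from 0) of 8 genes in each library of cen4- and CEN4 cells at 120 and 60 min, points for replicates and a line at the mean of 3. GPH1, HSP82 and ADR1 are higher in cen4- cells at 120 min than at 60 min, and PHO89, SHM2, GCV3, RPS31 and MFA1 are lower, without overlap.

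Ribosomal protein genes fell as a block. Of 137 genes of the cytosolic ribosome 132 fell and none rose, with a median log2 change of -0.50 and 26 genes that have a near-identical copy among which reads may be split. In the 3 libraries at 120 min they took 15%, 14.7% and 14.3% of all reads, against 18.8%, 19.2% and 19.4% at 60 min. The shares of the CEN4 strain were 21.1%, 22.0% and 20.9% at 120 min, against 21.6%, 21.7% and 22.4% at 60 min. In CEN4 cells 87 genes fell and 9 rose, with a median of -0.13. The difference was more negative in cen4- cells for 125 of the 137 and more positive for none. With the length trend removed it was more negative for 64 of 81 large-subunit and 53 of 56 small-subunit genes.

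All 56 small-subunit genes fell, between -0.65 and -0.29, and 76 of 81 large-subunit genes fell, none below -0.65. RPL9A (chrVII:227754-228329) had 9123, 9020.1 and 9188 normalised counts at 120 min, against 14142.5, 14313 and 14477 at 60 min. It fell, with a change of -0.65 on the log2 scale (adjusted p = 2.71e-25), with no overlap. RPS26B had 8527, 8168 and 8395 normalised counts at 120 min, against 13259.8, 13177 and 13066 at 60 min, a change of -0.65 ± 0.03 (SE), adjusted p = 3.01e-27. RPL33B had 4441, 4309 and 4166 normalised counts at 120 min, against 6049, 6282 and 7119 at 60 min, a change of -0.59 ± 0.04 (SE), adjusted p = 3.61e-20, against 0.31 in CEN4 cells, where it rose. RPS31, which encodes a fusion of ubiquitin to a small-subunit protein, had 36543, 36320.2 and 34664 normalised counts at 120 min, against 51927, 53862 and 56636 at 60 min, a change of -0.59 ± 0.06 (SE), adjusted p = 7.56e-08, against 0.23 in CEN4 cells. The differences of RPL33B (-0.89) and RPS31 (-0.82) were among the 8 most negative of genes that were called in cen4- cells with a mean of at least 50. The median change of members on chromosome IV was -0.35 over 13 large-subunit genes and -0.34 over 6 small-subunit genes, against -0.51 over 68 and -0.51 over 50 on the other chromosomes.

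Genes that build ribosomes fell in both strains. Of 85 ribosome biogenesis genes 83 fell and none rose in cen4- cells, with a median of -0.31, against 79 and -0.28 in CEN4 cells. The difference was more negative for 5 and more positive for 3 (7 and 1 with the length trend removed, 3 and 8 at the same total). NOP7, a large-subunit assembly factor, had 3577, 3477 and 3597 normalised counts at 120 min, against 5833, 5287 and 4878 at 60 min, a change of -0.58 ± 0.05 (SE), adjusted p = 4.16e-11, against -0.47 in CEN4 cells. UTP23, a small-subunit assembly factor, had 972, 1013 and 1109 normalised counts at 120 min, against 1559, 1411 and 1429.5 at 60 min, a change of -0.51 ± 0.05 (SE), adjusted p = 2.77e-13. Of 20 subunits of RNA polymerases I and III, which make ribosomal and transfer RNA, 19 fell, with RPC31 lowest: 1121, 1091 and 1063 normalised counts at 120 min, against 1690.3, 1557 and 1616 at 60 min, a change of -0.57 ± 0.05 (SE), adjusted p = 1.29e-16. Of 33 translation factors 30 fell. YEF3, the fungal elongation factor 3, had 36703, 37381 and 39229 normalised counts at 120 min, against 51805, 49958 and 45654.5 at 60 min, a change of -0.38 ± 0.04 (SE), adjusted p = 8.3e-09, against -0.39 in CEN4 cells. Of 65 genes of the mitochondrial ribosome 34 rose and none fell (median 0.13), against 51 rises in CEN4 cells (median 0.21). At the same total 58 rose in cen4- cells (median 0.24) and 58 in CEN4 cells (median 0.25).

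**Figure D5:**
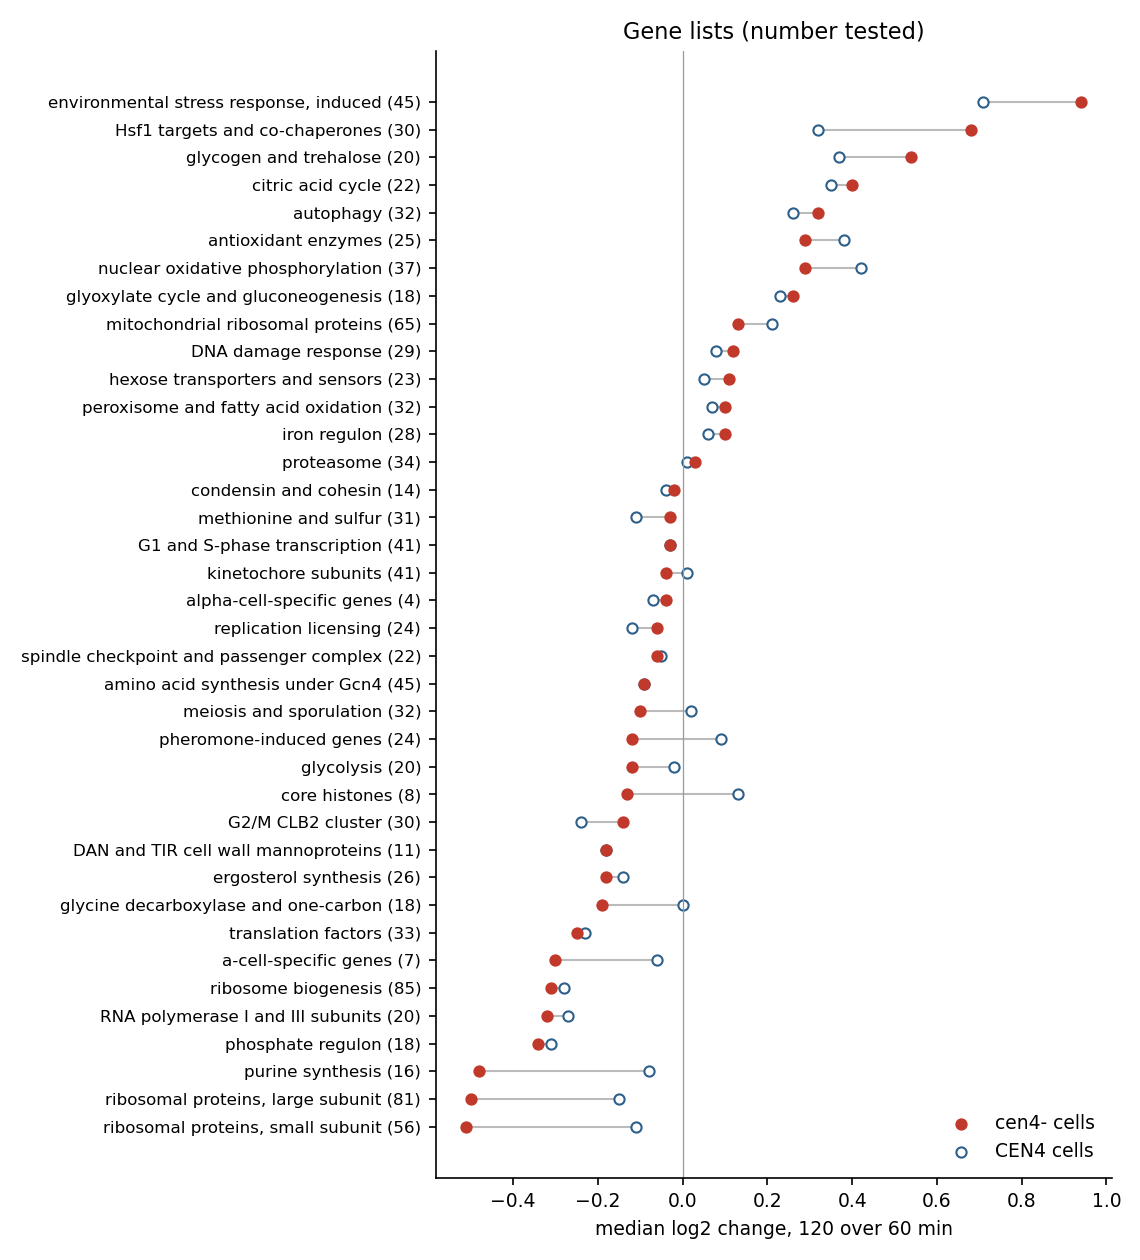
Median log2 change from 60 to 120 min of gene lists (number of tested genes in brackets), cen4- cells as filled and CEN4 cells as open circles joined by a line. Ribosomal proteins and purine synthesis lie lowest in cen4- cells (-0.51 to -0.48) and far from the CEN4 circles (-0.15 to -0.08), and stress genes lie highest (0.94).

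One-carbon and purine genes fell in cen4- cells, and many of them more than in CEN4 cells. Serine hydroxymethyltransferase and the glycine cleavage system supply folate-bound carbon units, and purine synthesis uses them. In cen4- cells 13 of 16 purine genes fell, 2 rose and the median was -0.48, against 7 falls and a median of -0.08 in CEN4 cells. The difference was more negative for 11 of them and more positive for 1 (12 and 0 with the length trend removed). Of 18 one-carbon genes 12 fell and 2 rose (median -0.19), against 4 falls and 5 rises in CEN4 cells (median 0.00), and the difference was more negative for 5 (7 with the length trend removed). Under equal totals 8 one-carbon genes fell in cen4- cells (median -0.08).

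SHM2, the cytosolic serine hydroxymethyltransferase (chrXII:257992-259401), had 5073, 5067 and 5459.5 normalised counts at 120 min, against 10407, 9522 and 9165.5 at 60 min. It fell, with a change of -0.90 on the log2 scale (adjusted p = 3.64e-20), with no overlap, against -0.10 in CEN4 cells (adjusted p = 0.0529), a difference of -0.80 ± 0.06 (SE), adjusted p = 1.01e-12. MTD1, a methylenetetrahydrofolate dehydrogenase, had 1286, 1254 and 1309 normalised counts at 120 min, against 2323, 2064 and 1953.5 at 60 min, a change of -0.72 ± 0.05 (SE), adjusted p = 3.68e-17, against 0.01 in CEN4 cells. The glycine cleavage genes moved in opposite directions in the strains. GCV3, its lipoyl carrier protein, had 2051, 1958.5 and 1923 normalised counts at 120 min, against 2569, 2566 and 2608 at 60 min, a change of -0.38 ± 0.04 (SE), adjusted p = 7.54e-13. In CEN4 cells GCV3 had 3998, 4254 and 3851 at 120 min, against 2944, 2770.1 and 3019 at 60 min, a change of 0.47 (adjusted p = 1.27e-15), and the difference was -0.86 ± 0.06 (SE), adjusted p = 4.16e-19. GCV1 and GCV2 changed by -0.39 and -0.46 in cen4- cells, against 0.30 and 0.18 in CEN4 cells, and all 4 of these changes passed.

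Among the purine genes ADE17, which encodes the enzyme of the last steps to IMP, had 4092, 4079 and 4436 normalised counts at 120 min, against 7879, 7036 and 6856 at 60 min. It fell, with a change of -0.79 on the log2 scale (adjusted p = 4.43e-18), against -0.01 in CEN4 cells, a difference of -0.77 ± 0.06 (SE), adjusted p = 3.57e-12. ADE5,7 had 5075, 5175 and 5514 normalised counts at 120 min, against 9477, 8935 and 8387 at 60 min, a change of -0.76 ± 0.05 (SE), adjusted p = 1.96e-16, against -0.34 in CEN4 cells. ADE1 had 3341, 3261 and 3422 normalised counts at 120 min, against 5852, 5263 and 5061 at 60 min, a change of -0.69 ± 0.05 (SE), adjusted p = 1.75e-13, against -0.13 in CEN4 cells. These 3 differences passed whichever library was left out. IMD2, an IMP dehydrogenase on the branch to GMP, had 370.3, 384 and 372 normalised counts at 120 min, against 638, 598 and 536 at 60 min, a change of -0.65, against -0.73 in CEN4 cells, and its difference did not pass. BAS1, the activator of the ADE genes, did not pass in cen4- cells (-0.01, adjusted p = 0.847). PHO2, its partner, on chromosome IV, rose by 0.27 (adjusted p = 0.000152).

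Bas1 is known to bind TGACTC, which was searched on both strands, and the same letters are the core of Gcn4 sites. They occurred in the 400 bases before 62.5% of the purine genes, 61.1% of the one-carbon genes and 73.3% of the listed Gcn4 genes, against 10.5% of all 5717 genes. Genes that rose in cen4- cells held them in 10% and genes that fell in 12.3%. Windows with the letters in capitals are shown for 5 of the genes just described, whose difference between strains passed. SHM2 has 3 matches in the 400 bases and the other 4 have 2 each.
SHM2: accataaaggttTGACTCtatctcttgggt
MTD1: attatgatatatTGACTCagtagaaaagga
GCV3: cattcagcggcgGAGTCActttcgctaact
ADE17: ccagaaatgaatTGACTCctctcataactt
ADE5,7: acaagtgccgacTGACTCgtgtcctggtaa

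The windows lie at chrXII:259611-259640 (minus strand), chrXI:590209-590238 (plus strand), chrI:58542-58571 (minus strand), chrXIII:509440-509469 (minus strand) and chrVII:56286-56315 (plus strand), 227, 174, 97, 177 and 184 bases before the start codon. Of 45 listed Gcn4 targets of amino acid synthesis 21 fell (46.7%, against 25.4% of all tested genes) and 6 rose (13.3%, against 24.9%), with a median of -0.09. In CEN4 cells 20 fell and 5 rose, with the same median. At the same total 14 fell and 9 rose in cen4- cells, and the median was 0.02.

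Respiratory genes rose in both strains. Of 37 nuclear genes of oxidative phosphorylation 35 rose in cen4- cells and none fell, with a median of 0.29, against 36 and 0.42 in CEN4 cells. The difference was more negative in cen4- cells for 13, and for 1 with the length trend removed; at the same total it was more negative for 6 and more positive for 2. CYC7, a cytochrome c isoform, had 1057, 1163 and 1000.2 normalised counts at 120 min, against 489.9, 452 and 564 at 60 min, a rise of 1.10 ± 0.09 (SE), adjusted p = 1.31e-16. RIP1, the Rieske protein of complex III, had 1778, 1802 and 1764 normalised counts at 120 min, against 1133, 1174 and 1153 at 60 min, a rise of 0.63 ± 0.04 (SE), adjusted p = 6.31e-20, against 0.56 in CEN4 cells. Of 22 citric acid cycle genes 19 rose and 2 fell (median 0.40), and SDH1, a succinate dehydrogenase subunit, had 2284, 2344 and 2367 normalised counts at 120 min, against 1337, 1389.8 and 1267 at 60 min, a rise of 0.81 ± 0.06 (SE), adjusted p = 3.19e-16.

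ADR1, a transcription factor on chromosome IV that activates genes of alcohol and fatty acid use, had 895, 845.5 and 871.5 normalised counts at 120 min, against 444, 498 and 481 at 60 min, a rise of 0.88 ± 0.07 (SE), adjusted p = 5.97e-18. In CEN4 cells it had 453, 418 and 452 at 120 min, against 425, 461 and 431 at 60 min, a change of 0.01 (adjusted p = 0.947). The difference was 0.87 ± 0.09 (SE), adjusted p = 4.95e-11, and the 3 cen4- values at 120 min were all above those at 60 min. CAT2, carnitine acetyltransferase, rose by 0.87 in cen4- cells and 0.33 in CEN4 cells, a difference of 0.55 ± 0.13 (SE), adjusted p = 0.00174. Of the 32 peroxisome and fatty acid oxidation genes 9 rose (28.1%, near the 24.9% of all tested genes) and 1 fell (3.12%, against 25.4%). At the same total 18 rose and none fell, with 40.8% of all tested genes rising under that scaling.

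Of 23 glucose transporter and sensor genes 6 rose (26.1%) and 4 fell (17.4%) in cen4- cells, near or below the 24.9% and 25.4% of all tested genes, against 4 rises and 5 falls in CEN4 cells. With all libraries at the same total 10 rose and 3 fell in cen4- cells. HXT2, an inducible transporter, had 2949, 2797 and 2862 normalised counts at 120 min, against 6342, 6070.3 and 5896 at 60 min, a change of -1.09 ± 0.08 (SE), adjusted p = 3.23e-10, against -1.07 in CEN4 cells. HXT3, a low-affinity transporter, had 8278, 7918 and 8020.4 normalised counts at 120 min, against 15479.5, 14659 and 14717 at 60 min, a change of -0.89 ± 0.09 (SE), adjusted p = 4.37e-08. HXT6, a high-affinity transporter, had 232, 230.1 and 227 normalised counts at 120 min, against 119.9, 119 and 105 at 60 min, a rise of 1.00 ± 0.14 (SE), adjusted p = 4.77e-08, with reads that may be shared with its near-identical neighbour HXT7. Of 20 glycolysis genes 13 fell and 6 rose (median -0.12), and with all libraries at the same total 7 fell and 7 rose. TDH1, a minor glyceraldehyde-3-phosphate dehydrogenase gene, had 9235, 9148 and 8510.5 normalised counts at 120 min, against 5030.1, 5506 and 5889.5 at 60 min, a rise of 0.71 ± 0.07 (SE), adjusted p = 7.14e-09.

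The largest single fall was in phosphate uptake. PHO89, a sodium-phosphate symporter (chrII:796798-798522), had 86.1, 67.8 and 81 normalised counts at 120 min, against 255, 252.5 and 301 at 60 min, a change of -1.77 ± 0.13 (SE), adjusted p = 4.94e-14. The CEN4 change was -1.64, and the difference did not pass (-0.14 ± 0.18 (SE), adjusted p = 0.684). Of 18 genes of the phosphate regulon 13 fell and 2 rose (median -0.34), against 15 and 1 in CEN4 cells (median -0.31). PHO5, the repressible acid phosphatase, had 651, 653 and 612 normalised counts at 120 min, against 1095, 1121 and 1156 at 60 min, a change of -0.81 ± 0.06 (SE), adjusted p = 1.04e-18. TIR1, a cold-shock and low-oxygen cell wall mannoprotein, had 1158, 1195 and 1197.5 normalised counts at 120 min, against 2706, 2722 and 2716 at 60 min, a change of -1.20 ± 0.05 (SE), adjusted p = 2.49e-24, against -1.31 in CEN4 cells.

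Of 26 sterol genes 17 fell and 1 rose (median -0.18), against 14 falls in CEN4 cells (median -0.14). Under equal totals 11 fell and 4 rose in cen4- cells (median -0.07), against 14 falls in CEN4 cells (median -0.11). ERG3, the C-5 sterol desaturase, had 7662, 7949 and 7765 normalised counts at 120 min, against 12284, 12259.5 and 12579.7 at 60 min, a change of -0.67 ± 0.03 (SE), adjusted p = 3.06e-27. In the iron regulon 13 of 28 rose and 3 fell (46.4% and 10.7%, against 24.9% and 25.4% of all tested genes), with a median of 0.10. In CEN4 cells 6 rose and 4 fell (median 0.06). The difference was more positive for 4 and more negative for 4 (3 and 4 with the length trend removed). At the same total 17 rose and 2 fell in cen4- cells, and the difference was more positive for 7 and more negative for 4. FRE1, the main ferric and cupric reductase, had 1209.6, 1244 and 1323 normalised counts at 120 min, against 2202, 2213 and 2300.3 at 60 min, a change of -0.83 ± 0.05 (SE), adjusted p = 4.52e-24, and fell more than in CEN4 cells (-0.37 ± 0.06 (SE), adjusted p = 1.17e-05). Of 31 methionine and sulfur genes 8 rose and 8 fell (25.8% each), near the 24.9% and 25.4% of all tested genes, with a median of -0.03. At the same total 12 rose and 6 fell, with a median of 0.08. SAM1, an S-adenosylmethionine synthetase, had 6313.5, 6059 and 6403 normalised counts at 120 min, against 10753, 10140.4 and 9471 at 60 min, a change of -0.69 ± 0.05 (SE), adjusted p = 2.59e-14, against -0.57 in CEN4 cells.

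Cell cycle lists moved by small amounts. Of 30 genes of the G2/M CLB2 cluster 16 fell and 1 rose (median -0.14), against 20 falls in CEN4 cells (median -0.24). Scaled to the same total, 11 fell and 2 rose in cen4- cells (median -0.03), against 19 falls in CEN4 cells (median -0.21). CLB2, the main mitotic cyclin, had 1094, 1063 and 1105 normalised counts at 120 min, against 1568, 1429 and 1332 at 60 min, a change of -0.41 ± 0.05 (SE), adjusted p = 2.72e-10, against -0.50 in CEN4 cells.

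Core histone genes differed in direction between the strains. In cen4- cells 6 of 8 fell and none rose (median -0.13), while in CEN4 cells 6 rose and none fell (median 0.13). The difference was more negative for 7 of 8. With the length trend removed 6 fell in cen4- cells, 1 rose and 1 fell in CEN4 cells, and the difference was more negative for 3. With all libraries at the same total 1 rose and 1 fell in cen4- cells, with a median of -0.02. HHT1, a histone H3 gene, had 10845, 10952 and 10169.5 normalised counts at 120 min, against 12268.5, 13101.5 and 13585 at 60 min, a change of -0.28 ± 0.04 (SE), adjusted p = 3.65e-10, against 0.15 in CEN4 cells, and the difference was -0.44 ± 0.05 (SE), adjusted p = 2.62e-10 under the deposited scaling. HHF1, the H4 gene beside it, had 11083, 10755 and 10632 normalised counts at 120 min, against 11405, 12006 and 12568.5 at 60 min, a change of -0.15 ± 0.03 (SE), adjusted p = 7.92e-05, against 0.22 in CEN4 cells, and its fall did not pass at the same total.

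Of 41 kinetochore subunits 4 rose and 4 fell in cen4- cells (9.76% each, against 24.9% and 25.4% of all tested genes), with a median of -0.04. In CEN4 cells 12 rose and none fell (median 0.01). The difference was more negative in cen4- cells for 9 (22.0%, against 9.05% of all tested genes) and more positive for 1. With the length trend removed these were 6 and 2, and at the same total 7 and 3. In cen4- cells 9 kinetochore genes rose and 1 fell at the same total (median 0.07). The lowest difference was that of DAD4, a subunit of the Dam1 complex that couples kinetochores to microtubules, singled out after its values were seen. DAD4 had 328.6, 378 and 279 normalised counts in cen4- cells at 120 min, against 328, 328 and 443 at 60 min, a change of -0.15 that did not pass. In CEN4 cells DAD4 had 1177, 1253 and 1039.6 at 120 min, against 494, 388 and 451 at 60 min, a change of 1.38. The difference was -1.53 (adjusted p = 6.02e-07), it passed whichever library was left out, and it was -1.37 with the length trend removed. DAD4 overlaps a dubious open reading frame. Of 22 spindle checkpoint and passenger genes 1 rose (4.55%) and 5 fell (22.7%, near the 25.4% of all tested genes), with a median of -0.06. At the same total 7 of them rose and 2 fell (median 0.05). Of 14 condensin and cohesin genes 3 rose (21.4%, near the 24.9% of all tested genes) and none fell (median -0.02). At the same total 5 of them rose (median 0.09), with 40.8% of all tested genes rising under that scaling. The 3 that rose under the deposited scaling were MCD1, RAD61 and SCC2, all on chromosome IV. RAD61, a cohesin release factor, had 326, 286 and 301 normalised counts at 120 min, against 258, 279.6 and 246 at 60 min, a rise of 0.22 (adjusted p = 0.032). It did not pass without replicate 1 or 3 at either time (0.17 and 0.23 without those at 120 min, 0.21 and 0.18 without those at 60 min). SCC2, a cohesin loader, rose by 0.15 (adjusted p = 0.0242) and did not pass without replicate 2 or 3 at 120 min (0.15 and 0.13) or replicate 1 at 60 min (0.15). No condensin subunit passed, with BRN1 lowest at -0.18. SCM3, which escorts the centromeric histone Cse4 and lies on chromosome IV, had 233, 234 and 249.8 normalised counts at 120 min, against 179, 194 and 179.5 at 60 min, a rise of 0.37 ± 0.11 (SE), adjusted p = 0.00248, against 0.00 in CEN4 cells, and this difference did not pass (0.37 ± 0.15 (SE), adjusted p = 0.0816). NUF2, of the Ndc80 complex, had 254, 268 and 262 normalised counts at 120 min, against 318, 386 and 301 at 60 min, a change of -0.35 ± 0.08 (SE), adjusted p = 0.000337, against 0.05 in CEN4 cells.

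The proteasome list divided by position. Of its 7 members on chromosome IV 7 rose (median 0.29), and of the 27 on other chromosomes 1 rose and 1 fell (median -0.01). With all libraries at the same total 25 of 34 rose. RPT2, an ATPase of the proteasome base, had 7918, 7936 and 7639 normalised counts at 120 min, against 6088, 5889 and 5711 at 60 min, a rise of 0.41 ± 0.04 (SE), adjusted p = 2.07e-14, against -0.01 in CEN4 cells, a difference of 0.42 ± 0.05 (SE), adjusted p = 7.01e-09. RPT3, another base ATPase, had 3897, 3961 and 3867 normalised counts at 120 min, against 3338.5, 3223 and 2935 at 60 min, a rise of 0.31 ± 0.04 (SE), adjusted p = 8.21e-10, against -0.05 in CEN4 cells. RPN9 and RPN6, lid subunits, rose by 0.29 and 0.29 with CEN4 changes of 0.00 and 0.03. The same split appeared in the G1 and S-phase list, where 6 of 6 members on chromosome IV rose (median 0.22). Elsewhere 1 rose and 14 fell among 35 (median -0.09). Other lists did not divide this way. The stress list had medians of 0.71 over 4 members on chromosome IV and 0.94 over 41 elsewhere. Citric acid cycle genes had 0.35 over 4 and 0.41 over 18, and oxidative phosphorylation genes 0.29 over 7 and 0.29 over 30. The whole G1 and S-phase list had 7 rises and 14 falls with a median of -0.03, and 14 rises and 4 falls with a median of 0.08 at the same total. GIN4, a septin kinase on chromosome IV, had 1686.5, 1899 and 1864 normalised counts at 120 min, against 1583, 1489 and 1387 at 60 min, a rise of 0.29 ± 0.05 (SE), adjusted p = 2.05e-06, against -0.02 in CEN4 cells.

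Mating genes specific to a cells were mostly lower. Of 7 a-specific genes 5 fell and 1, ASG7, rose (median -0.30), against 2 falls and 3 rises in CEN4 cells (median -0.06). MFA1, an a-factor gene, had 1979.6, 1925.5 and 1819 normalised counts at 120 min, against 2534, 2689.8 and 3157 at 60 min. It fell, with a change of -0.54 on the log2 scale (adjusted p = 2.44e-06), with no overlap, against 0.23 in CEN4 cells, where it had 3867, 4232 and 3446 at 120 min, against 3119, 3328 and 3365 at 60 min. The difference was -0.77 ± 0.11 (SE), adjusted p = 1.22e-05. STE2, the alpha-factor receptor, had 9137, 9231 and 9267 normalised counts at 120 min, against 12289, 12084 and 11839 at 60 min, a change of -0.39 ± 0.03 (SE), adjusted p = 2.43e-15, against -0.19 in CEN4 cells. Of 24 pheromone-induced genes 9 fell and 2 rose (median -0.12), against 4 falls and 9 rises in CEN4 cells (median 0.09), and the difference was more negative for 6 (7, and more positive for 1, with the length trend removed). At the same total 3 fell and 5 rose in cen4- cells.

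Stress genes of the cen4- strain stood lower at 60 min than at 30 min and higher again at 120 min. Set against 0 min of the same strain, the median of the stress list in the cen4- strain was 1.18 at 30 min, 0.89 at 60 min, 1.87 at 120 min and 2.09 at 180 min. In CEN4 cells it was 1.26, 1.19, 1.92 and 1.73 at the same times, and the libraries of 30 min (1.23 to 1.28) and 60 min overlapped. On this scale the libraries of the strains overlapped at 120 min (cen4- 1.77 to 1.92, CEN4 1.77 to 2.0). They did not at 60 min (cen4- 0.80 to 1.00, CEN4 1.10 to 1.27). The strains started from unlike levels, with 0.486% to 0.527% of reads in the list in CEN4* cells at 0 min and 0.268% to 0.312% in CEN4 cells. By share of reads cen4- cells stood above CEN4 cells at 60 min (1.06% to 1.21%, against 0.784% to 0.875%). The same held at 120 min (2.08% to 2.22%, against 1.26% to 1.47%). Hsf1 targets stood at 0.76, 0.51, 1.15 and 1.21 in the cen4- strain, against 0.56, 0.41, 0.73 and 0.59 in CEN4 cells. Large-subunit ribosomal protein genes stood at -0.42, -0.49, -0.99 and -1.27 in the cen4- strain, against -0.34, -0.42, -0.55 and -0.65 in CEN4 cells. Purine genes stood at -0.67, -0.47, -0.90 and -0.64 in the cen4- strain, against -0.62, -0.34, -0.40 and -0.13. Core histone genes stood at 0.79, 0.45, 0.37 and 0.18, against 0.91, 0.56, 0.69 and 0.67. Each median is a mean over 3 libraries.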

How the data were processed

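RNA of whole yeast populations was sequenced in 30 libraries, 10 groups of 3 (2 strains at 5 times), grouped by their labels. The deposited table holds a signal value for each of 7127 genes in each library. Per the submitters' processing notes, the authors aligned reads with STAR 2.6.1 to R64 (sacCer3) and used DESeq2; the values are reads divided by a size factor, and whole reads were recovered for 100% of values within 1e-06. Which counter, strand setting and annotation were used is not given in the sources used here, and a read from overlapping or antisense genes cannot be assigned to either. The recovered reads give the depth of each library and serve the count tests.

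Values were tested as log2(value + 1) with limma 3.58.1 (R 4.3.3; trended, robust), 10 group means, 20 residual degrees of freedom and Benjamini-Hochberg adjustment over 5948 genes whose mean over all libraries was at least 10. A call is an adjusted p below 0.05. Every adjusted p in the text is from this fit, two-sided, and every fold change is on this scale, which understates changes of low genes. The difference between strains is the cen4- change minus the CEN4 change. Alternatives were a fit on the groups compared alone, a pseudocount of 5, no filter, a minimum mean of 50, equal library totals, edgeR 4.0.16 and DESeq2 1.42.0 on whole reads, each library left out, the title number as a replicate block, and, chosen after seeing the data, removal of the trend against gene length in each library. The fits were tested on simulated data.

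Named genes were the 12 largest rises and 12 largest falls among called genes with a mean of at least 50 that did not overlap between groups, the 8 largest differences between strains each way among genes called there with the same mean and a called cen4- change, up to 4 called members of each of 39 lists with the largest change, and mating-type and auxotrophic markers, 175 in all; members of lists beyond these were named after their values were seen. Some items are not reported here. The members and lists were chosen with earlier results of these data known. Sequences come from RefSeq R64, to which 6047 genes matched by identifier. The name of 1 gene was altered in the table, and genes were matched by identifier. Replicates are labelled as independent experiments.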

Additional observations from a re-analysis of the deposited data

Results flagged for a closer look

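For 84 of the named genes the change from 60 to 120 min differed between cen4- and CEN4 cells by the interaction test of limma (adjusted p below 0.05 over all 5948 genes), more positive in cen4- cells for 38 and more negative for 46. Differences are log2, the cen4- change minus the CEN4 change. The call held for 56 whichever of the 12 libraries was left out, and for 52 also with the length trend removed.

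Among those 52, genes on chromosome IV with a more positive change in cen4- cells were HSP42 0.67, ADR1 0.87, YDR365W-B 0.82, HSP78 0.66, RPT2 0.42, RPT3 0.36, RPN9 0.29, RPN6 0.25, GIN4 0.31 and RAD61 0.49. On other chromosomes the more positive differences were TSL1 0.88, GSY2 0.45, GDB1 0.70, YNL194C 0.79, BTN2 0.61, ALD4 0.40, AIM17 0.75, HSP82 0.65, ATG2 0.48, CAT2 0.55 and FAA1 0.21. Ribosomal protein genes were all more negative, with RPL41B -0.99, RPL33B -0.89, RPS31 -0.82, RPL43B -0.80, RPL9A -0.64, RPL1B -0.45, RPL42A -0.61, RPS26B -0.34, RPS27B -0.51, RPS18B -0.67 and RPS21A -0.62. Genes of one-carbon, purine and other metabolism were more negative too, with SHM2 -0.80, FRE1 -0.37, GCV3 -0.86, PDC6 -0.77, MTD1 -0.72, GCV2 -0.64, GCV1 -0.68, ADE17 -0.77, ADE5,7 -0.42, ADE1 -0.56, HIS1 -0.32 and ERG3 -0.17. The remaining more negative differences were MIX14 -0.88, KTI11 -0.84, RPC31 -0.25, HHT1 -0.44, HTA2 -0.41, HHF1 -0.37, MFA1 -0.77 and STE2 -0.20. KTI11 overlaps another gene, and RPL1B has a near-identical copy.

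The call was lost without some library for 28 genes, with 3 lost without CEN4 replicate 3 at 120 min and 7 to 20 without any other library, the most without CEN4 replicate 3 at 60 min. Of these the more positive were GPH1 0.39, SOL4 0.33, HXK1 0.36, YMR085W 0.66, RSM24 0.26, PRX1 0.19, PHR1 0.35, CIT1 0.19, IDH1 0.18, ACH1 0.25, PYK2 0.37, PDC5 0.40, SUL2 0.30, HMX1 0.57, CCC2 0.32, CTF19 0.45 and SCC2 0.26. The more negative were GAR1 -0.14, NOP10 -0.41, SUI3 -0.19, ERG2 -0.15, NRM1 -0.25, AIM20 -0.20, NUF2 -0.40, BUB1 -0.36, FAR1 -0.18, BAR1 -0.18 and HIS3 -0.23. YDR365W-B, a transposon gene, has near-identical copies, and CTF19 overlaps another gene. In 4 more the call held whichever library was left out and was lost with the length trend removed, namely HTA1 -0.22, PSF1 -0.34, MFA2 -0.28 and AGA2 -0.25.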

How the results depend on the processing

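In cen4- cells the counts of genes higher and lower stayed within 1.5 times the reported 1483 and 1512 under every alternative except equal library totals, which gave 2428 and 836. Fitting the compared groups alone gave 1446 and 1431, a pseudocount of 5 gave 1491 and 1512, no filter 1479 and 1503, a mean of at least 50 gave 1479 and 1500, edgeR 1466 and 1540, DESeq2 1423 and 1440, and removal of the length trend, chosen after seeing the data, 1481 and 1489. Leaving out 1 library gave 1329 to 1369 higher and 1359 to 1415 lower. For the difference between strains (457 and 538) equal totals gave 988 and 330, the compared groups alone 341 and 451, edgeR 408 and 608, DESeq2 397 and 513, removal of the length trend 306 and 361, and leaving out 1 library 341 to 488 and 429 to 589. The replicate block by title number gave 455 and 555. Deviations of same-numbered libraries of the strains had correlations of -0.03 to 0.07, within the -0.11 to 0.11 of differently numbered ones. No pairing by number was thus seen, but one with small shared deviations would look the same. No title number is shared between times of a strain, so no block was fitted there, and whether libraries of different times came from the same experiment was not tested.

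With equal totals the median change in cen4- cells turned positive for methionine and sulfur (0.08), Gcn4 targets (0.02), G1 and S-phase genes (0.08), replication licensing (0.05), kinetochore (0.07), spindle checkpoint (0.05), condensin and cohesin (0.09), alpha-specific (0.07) and meiosis genes (0.01). The alternative's own construction adds about 0.104 to every change. Of the named genes' changes in cen4- cells, 2393 comparisons with an alternative kept direction and call and 51 lost the call; for the difference 3402 kept it, 53 gained it and 210 lost it, and none reversed. Depth of 8233459 to 11002408 reads limits genes of low counts most.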

Other observations

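Small RNA genes with names starting snR, which guide ribosomal RNA modification or splice messenger RNA, fell: 42 of 68 with no rise in cen4- cells (median -0.44), against 20 of 68 in CEN4 cells (median -0.19). At equal library totals 35 fell in cen4- cells and none rose, with a median of -0.33. Of all tested genes 25.4% fell in cen4- cells and 23.4% in CEN4 cells. The difference between strains was more negative for 5 of the 68 and more positive for 1. These shares lay below the 9.05% and 7.68% of all tested genes. The snR genes had no annotated length, so the removal of the length trend did not cover them. snR48 had 52.4, 54.4 and 50.5 normalised counts at 120 min, against 108, 92.9 and 109 at 60 min, a change of -0.96 ± 0.15 (SE), adjusted p = 1.67e-07. snR80 had 32, 21.4 and 28.6 normalised counts at 120 min, against 40.8, 52.2 and 71.4 at 60 min, a change of -0.96 ± 0.23 (SE), adjusted p = 0.000432. This set was chosen after its values were seen, and how such short RNAs were captured in the libraries was not tested.

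Autophagy genes rose in 24 of 32 cases with 1 fall (median 0.32; 20 rises in CEN4 cells, median 0.26). ATG8, the ubiquitin-like protein that coats autophagosomes, had 835, 781 and 729 normalised counts at 120 min, against 469.5, 542.5 and 495 at 60 min, a rise of 0.64 ± 0.08 (SE), adjusted p = 9.24e-10. Of 25 antioxidant genes 18 rose (72.0%) and 2 fell (8.0%), with a median of 0.29. In CEN4 cells 19 of them rose and none fell (median 0.38). At the same total 22 rose and none fell in cen4- cells. SOD2, the mitochondrial superoxide dismutase, had 5193, 5035 and 4994 normalised counts at 120 min, against 3397, 3547 and 3624 at 60 min. It rose by 0.53 ± 0.04 (SE), adjusted p = 5.99e-19. Of 29 DNA damage response genes 15 rose (51.7%) and 2 fell (6.9%), with a median of 0.12. In CEN4 cells 8 rose (27.6%, near the 22.5% of all tested genes) and 3 fell (10.3%, against 23.4%), with a median of 0.08. The difference was more positive for 2 (6.9%, against 7.68% of all tested genes) and more negative for 1 (3.45%, against 9.05%). It passed for none with the length trend removed. At the same total it was more positive for 6 and more negative for none, with 988 and 330 of all 5948. Genes whose promoters the authors' deposited table classes as TATA rose in 33.4% and fell in 30.4% of 743 cases. TATA-like genes rose in 22.1% and fell in 30.2% of 3428, and all tested genes in 24.9% and 25.4%. In CEN4 cells TATA genes rose in 32.6% and fell in 26.9%. TATA-like genes there rose in 18.9% and fell in 28.6%, and all tested genes in 22.5% and 23.4%.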
